A study of Mus musculus with 18 samples.

Results

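Plasma cells lacking the histone methyltransferase G9a were compared with activated B cells of the same genotype, which describes the last step of B cell differentiation without G9a. The comparison holds 6 of the 18 RNA-seq libraries of the series: 3 of knockout plasma cells and 3 of knockout activated B cells, each numbered 1, 3 and 4. Both groups came from spleens of G9afl/fl mice with a B-lineage Cre allele that had received 50 µg lipopolysaccharide (LPS) in 100 µl through the tail vein 72 h earlier. Activated B cells were sorted as B220+GL7+ and plasma cells as CD138+ cells with intermediate or low B220, after dead cells and cells bearing F4/80, Cd11b or Thy1.2 had been gated out. RNA came from 1000 sorted cells per library. The 6 control libraries set beside them, 3 per cell type, came from mice with the same Cre allele and no floxed G9a named in their labels, under the same LPS schedule. Deletion was thus directed to the B lineage, and knockout and control animals alike carried 1 Cre-bearing allele. No source used here gives the ages of the mice or ties replicates to separate animals. Every p-value is therefore set against sample-to-sample spread, which may be technical.

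G9a, encoded by Ehmt2, works with its partner GLP (Ehmt1) to add methyl groups to lysine 9 of histone H3, a mark found on silent genes. When a B cell becomes a plasma cell, the transcription factor Blimp-1 (Prdm1) shuts down B cell identity genes such as Pax5, while Irf4 and Xbp1 turn on antibody secretion and enlarge the endoplasmic reticulum (ER). LPS, a bacterial cell wall component sensed by Toll-like receptor 4, drives this change in splenic B cells without T cell help.

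Levels are given as RPKM (reads per kilobase of transcript, relative to library size) after a further scaling per library, and a log2 change is the difference in log2(scaled RPKM + 1), plasma minus activated, given with its standard error (SE). The adjusted p comes from limma over all 10391 tested genes, and a gene was called at an adjusted p below 0.05. The depth of the libraries is not stated. Estimated from the steps between low values, it was roughly 2660000 to 10760000 reads in the knockout activated libraries and 5160000 to 6520000 in the knockout plasma cell libraries. Plasma cell replicate 3 listed 943 genes at 0, against 145 and 65 in replicates 1 and 4. The median SD between replicates over genes was 0.12 in activated and 0.11 in plasma cells on the log2 scale. In bulk RNA, fewer cells of a type and less RNA per cell cannot be told apart.

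Ehmt2 RNA (chr17:34898463-34914073, GRCm38) separated the genotypes in plasma cells and not in activated cells, without passing the test. It stood at 22.5, 21.8 and 21 in knockout activated cells and 14.6, 12.3 and 14.2 in knockout plasma cells, and at 21.4, 19.3 and 25.7 and 17.4, 16 and 17.6 in the controls. In knockout against control plasma cells the log2 difference was -0.30 (95% interval -0.52 to -0.08, adjusted p = 0.084). Knockout plasma cell values lay below all knockout activated values. The log2 change of the step was -0.64 ± 0.1 (adjusted p = 5.0e-05). A value summed over a whole gene does not show whether the floxed part was lost, so the deletion was not checked here. Ehmt1 fell as well, by 0.65 on the log2 scale (adjusted p = 0.0021), from 14 to 8.65.

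The marker used to sort plasma cells separated the groups. Sdc1, which encodes the CD138 used in the sort, was listed at 0.44, 0.615 and 0.626 in activated and 144, 139 and 134 in plasma cells. Ptprc, the gene of CD45 whose B220 isoform was gated, was at 127, 135 and 124 and 116, 137 and 103, overlapping groups with a log2 change of -0.13 ± 0.1 (95% interval -0.35 to 0.09, adjusted p = 0.30). Ptprc was called lower with RPKM as deposited (-0.32) and after quantile normalization (-0.27).

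Of the 10391 genes tested, 6799 (65.4%) were called, of which 3289 (31.7%) were higher and 3510 (33.8%) lower in knockout plasma cells. Changes of at least 2-fold were called for 1231 genes upward (11.8%) and 970 downward (9.34%). The median log2 change over all tested genes was -0.03. With RPKM as deposited the median was -0.20 and the calls were 2552 higher and 4571 lower, so the share of calls that were higher fell from 48.4% to 35.8%. Small changes in either direction therefore depend on the scaling. Counts for every gene list below are to be read against the shares of 31.7% higher and 33.8% lower. A list with shares near these is not set apart by its counts. The libraries of the knockout groups did not overlap for 3566 genes that were higher (34.3%) and 3742 that were lower (36%). Lack of overlap was thus common, and does not by itself set a named gene apart. It was also a condition for naming the genes with the largest changes, so for those it was fixed beforehand.

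The plasma cell regulators rose together in all 3 knockout plasma cell libraries. Prdm1 stood at 13.1, 20.6 and 16.2 in activated cells and 101, 102 and 92 in plasma cells. Xbp1, which activates secretory pathway genes, went from 164, 213 and 232 to 1764, 2024 and 1889. Irf4, required for plasma cell formation, went from 30.8, 47.4 and 41.9 to 178, 179 and 182. For none of these genes did an activated library reach the lowest plasma cell library. Their log2 changes were 2.51 ± 0.13, 3.23 ± 0.11 and 2.16 ± 0.12 (adjusted p = 1.2e-10, 4.7e-13 and 1.5e-10). Ell2, an elongation factor that directs immunoglobulin RNA to its secreted form, rose from 16.7 ± 1.88 to 166 ± 1.95 (SD, n = 3). Creb3l2, an ER-bound transcription factor, rose from 4.28 to 90, and Fam46c, a poly(A) polymerase of plasma cells, from 29.4 to 486. Of 16 regulators tested, 11 rose and 3 fell, with a median of 1.8. The 3 that fell were Pou2f2 (-1.17), which encodes the octamer factor Oct-2, Ikzf1 (-0.76), which encodes Ikaros, and Mef2c (-0.2).

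Antibody assembly and plasma cell surface genes were among the largest rises. Jchain, which encodes the chain joining IgM and IgA monomers, stood at 117, 119 and 133 in activated cells and 5487, 6236 and 5730.4 in plasma cells. Tnfrsf17, the receptor BCMA through which plasma cells receive survival signals, went from 0.308, 0.86 and 0.421 to 74.3, 75.4 and 73.7. Slpi, a secreted protease inhibitor, went from 1.88, 0.526 and 0.641 to 315, 255 and 182. The groups were far apart for all of them, and Slpi varied most between the plasma cell libraries. The log2 changes were 5.55 ± 0.1 for Jchain, 5.64 ± 0.19 for Tnfrsf17 and 6.99 ± 0.31 for Slpi, and 6.49 ± 0.11 for Sdc1, which the sort had selected. Of the 25 listed genes, 22 rose and 1 fell, with a median of 3.1. The gene that fell was Cd38 (-2.19), an ectoenzyme of B cells. Other large rises outside these genes were Gpr160 (5.32), an orphan receptor, Rgcc (4.9), a cell cycle regulator, Tigit (4.73), an inhibitory receptor known from T and NK cells, Epcam (4.7), an adhesion molecule, and Hid1 (4.63), which takes part in secretory granule formation.

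**Figure D1:**
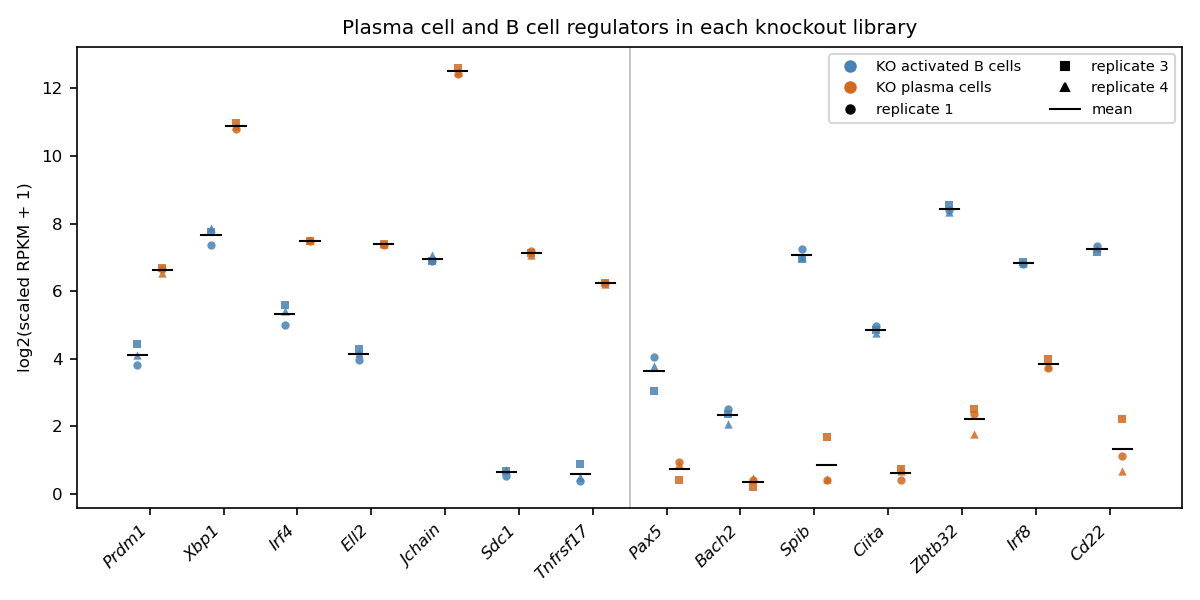
Level of 14 regulators and markers on the log2(scaled RPKM + 1) scale in each knockout library, with activated B cells in blue, plasma cells in orange, a symbol per replicate and a line at the mean of 3 libraries. The 7 genes left of the grey line are higher in every plasma cell library, and the 7 genes to its right are higher in every activated library.

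The secretory pathway rose almost as a whole. All 24 ER chaperones and folding enzymes were called higher, with a median log2 change of 2.38. All 20 tested genes of ER-associated degradation (ERAD), which returns misfolded proteins to the cytosol, rose (median 2.0), as did all 23 genes of ER translocation and signal peptide processing (median 2.05). N-glycosylation followed with 23 of 24 (median 1.85) and vesicle transport with 36 of 38 (median 1.59). The lists share members, such as Hsp90b1.

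The unfolded protein response acts through sequence words in chaperone promoters, so the windows around the starts of these genes were searched. The ER stress response element (ERSE), CCAAT and CCACG with 9 bases between them, on either strand, is bound by factors of that response. It was present in 19 of 8404 tested genes with a RefSeq window of 300 bases (0.226%), from 250 before to 50 after the start. Among chaperones it was present in 8 of 21 (38.1%), and in ERAD genes in 3 of 16 (18.8%). It was in 9 of 986 genes that rose at least 2-fold (0.913%) and in 1 of 772 that fell at least 2-fold (0.13%). The 9 genes include chaperone and ERAD genes already counted, and 11 of the 19 genes with the word belong to the secretory lists. The shares by direction are therefore no separate evidence. A match describes letters in a window and not a bound site. The 250 bases before the start are shown for Hspa5 (chr2:34771840-34772089, plus strand), Hsp90b1 (chr10:86705445-86705694, minus strand) and Creld2 (chr15:88819396-88819645, plus strand), from RefSeq on GRCm38.p6, 5′ to 3′ with the ERSE words in capitals. They were chosen as the most abundant members with the word and a pair of opposite genes that shares it.
Hspa5: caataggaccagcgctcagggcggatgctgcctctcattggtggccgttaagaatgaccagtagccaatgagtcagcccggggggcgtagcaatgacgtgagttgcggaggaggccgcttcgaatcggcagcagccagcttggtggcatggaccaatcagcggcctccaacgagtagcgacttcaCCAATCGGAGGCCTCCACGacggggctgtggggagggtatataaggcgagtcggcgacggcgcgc
Hsp90b1: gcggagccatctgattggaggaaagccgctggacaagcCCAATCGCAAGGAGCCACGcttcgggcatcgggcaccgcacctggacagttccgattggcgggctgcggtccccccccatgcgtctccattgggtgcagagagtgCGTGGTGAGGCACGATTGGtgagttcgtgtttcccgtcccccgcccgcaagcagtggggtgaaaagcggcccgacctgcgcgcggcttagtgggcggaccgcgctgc
Creld2: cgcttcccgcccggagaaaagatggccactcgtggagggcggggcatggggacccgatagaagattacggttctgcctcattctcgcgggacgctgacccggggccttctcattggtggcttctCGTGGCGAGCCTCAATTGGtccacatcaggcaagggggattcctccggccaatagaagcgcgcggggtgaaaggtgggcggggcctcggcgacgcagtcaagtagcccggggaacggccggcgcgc

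Hspa5 encodes BiP, the main ER chaperone, and stood at 549.8, 585 and 651 in activated and 1977, 2458 and 2295 in plasma cells. Hsp90b1 encodes GRP94, holds the word on both strands, and went from 591, 657 and 709 to 3772, 3813 and 4033. Creld2, a secreted ER stress protein, went from 119, 166 and 167 to 1259, 1351 and 1247. No library of one group reached the other, and the log2 changes were 1.91 ± 0.09, 2.57 ± 0.083 and 3.1 ± 0.1. The Creld2 word lies within the window of the opposite gene Alg12, a mannosyltransferase, whose log2 change was 0.5 (10.2 to 14.6). The other words, given for comparison of the spacer between their fixed ends, belong to the following genes.
Calr: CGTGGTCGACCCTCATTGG
Canx: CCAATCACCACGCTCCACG
Derl3: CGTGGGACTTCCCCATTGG
Dnajc3: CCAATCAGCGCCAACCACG
Ero1lb: CGTGGTCCCGCCTCATTGG
Pdia6: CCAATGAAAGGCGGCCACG
Syvn1: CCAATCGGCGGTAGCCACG
Log2 changes of these genes ranged from 0.41 for Canx, a membrane chaperone of glycoproteins, to 3.63 for Derl3, a channel component of ERAD, so holding the word did not go with 1 size of change. The word TGACGTGG was in 7 of 33 vesicle transport genes (21.2%), against 1.15% of all tested genes.

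Within the chaperones the largest rise was that of Fkbp11, a prolyl isomerase, from 10.6, 10.3 and 10.7 to 293, 296 and 254 (log2 change 4.61 ± 0.11). The disulphide isomerases Txndc5 (129.9 ± 6.59 to 1980.2 ± 132, SD, n = 3) and Pdia4 (425 ± 42.4 to 2564 ± 114) reached some of the highest levels in plasma cells. ERAD was led by Derl3 and by Edem2 (3.47) and Edem1 (3.34), which mark glycoproteins for removal. Among translocation genes, Srprb (2.61), a subunit of the signal recognition particle receptor, and Ssr2 (2.59), of the translocon-associated complex, were among the genes with the smallest adjusted p. Ddost (2.52), Stt3a (2.26) and Rpn1 (2.23) of the oligosaccharyltransferase rose together. The cargo receptor Lman1 went from 37.1, 38.3 and 39.1 to 259, 280.3 and 258 and the COPII coat gene Sec24d from 16.5, 13.1 and 18.6 to 230.3, 220.4 and 237.

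The sensors and factors of the unfolded protein response did not move as one. Of 15 tested, 12 rose and 3 fell (median 1.32). Ern1, the sensor IRE1 that splices Xbp1 RNA, rose from 1.43, 1.39 and 1.23 to 18.4, 19.7 and 22.5. Bhlha15, the secretory cell factor Mist1, rose from 8.94, 11.8 and 12.8 to 159.6, 161 and 169.9. Atf6 (1.32), Eif2ak3 (1.6), which encodes the sensor PERK, and Atf4 (1.17) rose less. Atf3, a stress-induced factor, fell from 6.97, 6.58 and 5.75 to 0.488, 0 and 0.355, and Ppp1r15a (-0.29) and Nfe2l2 (-0.37) were also lower.

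**Figure D2:**
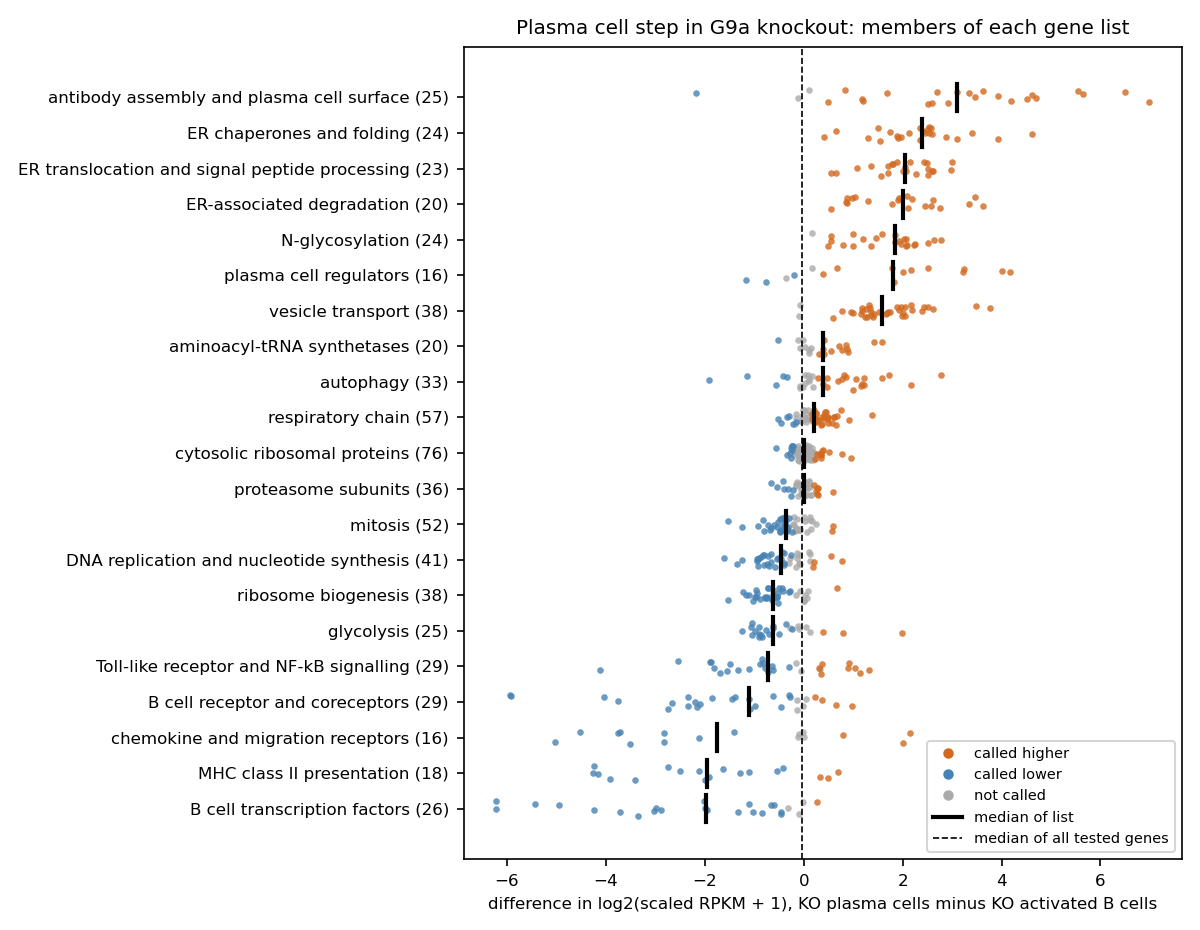
Log2 change of each tested gene of 21 lists in knockout plasma cells against knockout activated B cells, with genes called higher in orange, lower in blue and not called in grey; numbers in brackets are genes tested. Solid bars mark list medians and the dashed line the median of all tested genes, -0.03; the secretory lists lie to the right and the B cell lists to the left.

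B cell identity factors fell. Of 26 transcription factors tested, 22 were lower and 1 was higher, with a median of -1.97. Spib, an Ets factor of activated B cells, stood at 152, 122 and 129 in activated cells and 0.343, 2.25 and 0.364 in plasma cells. Zbtb32, a repressor in activated B cells, stood at 339.8, 371 and 322 and 4.19, 4.66 and 2.39. Pax5, the master factor of B cell identity, stood at 15.5, 7.23 and 12.8 and 0.925, 0.335 and 0.84. Groups were separate for each gene, and Spib was highest in plasma cell replicate 3. The log2 changes were -6.22 ± 0.25, -6.22 ± 0.14 and -2.88 ± 0.22. Bach2, which delays plasma cell formation, fell from 4.71, 4.19 and 3.23 to 0.337, 0.155 and 0.39, and Irf8 from 113 to 13.4. Bcl6, the germinal centre factor, was low throughout, at 1.98, 2.23 and 1.76 and 0.146, 0.615 and 0.432. Id3, an inhibitor of E proteins, fell by 5.44 on the log2 scale. Tcf4, an E protein, was the gene that rose (0.26), while Tcf3, Foxo1 and Mef2b were not called.

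The B cell receptor module fell unevenly. Of 29 genes, 21 were lower and 4 higher (median -1.11). The deepest falls were in surface receptors. Cd22, an inhibitory coreceptor, went from 161, 143 and 155 to 1.18, 3.61 and 0.605, its relative Siglecg from 161, 161 and 154 to 8.61, 8.37 and 9.07, and the IgE receptor Fcer2a from 138, 109 and 113 to 1.01, 0.855 and 1.04. None of the plasma cell libraries came near an activated one, and Cd22 was highest in plasma cell replicate 3. The signalling subunits Cd79a (917 to 433, log2 change -1.08) and Cd79b (693 to 453, -0.62) kept high levels. The adaptor Blnk (0.37) and the tetraspanins Cd81 (0.66) and Cd53 (0.23) rose, as did Cr1l (0.97), a complement regulator.

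Genes of antigen presentation through MHC class II fell in 15 of 18 cases and rose in 3 (median -1.96). Ciita, the transactivator of the class II genes, went from 30.2, 28.1 and 26.2 to 0.343, 0.662 and 0.602 (log2 change -4.25 ± 0.12). The class II chain H2-Aa went from 753, 841 and 747 to 137, 149.9 and 124, and H2-DMb2, of the peptide exchange complex, from 320.3, 385 and 302 to 16.8, 17.7 and 14.9. The groups did not overlap for these genes. Cd74, the invariant chain, fell less, from 3084 to 2081 (-0.55). The protease gene Ctss (0.7) and the promoter-binding subunits Rfxank (0.5) and Rfxap (0.34) rose. Near-identical copies among the H2 genes can share reads, so their separate values are uncertain.

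Homing receptors changed in both directions. Of 16 chemokine and migration genes, 9 fell and 3 rose (median -1.76). Ccr7, which draws B cells toward T cell zones, went from 64.6, 41.4 and 46.5 to 0.728, 1.02 and 0.103, and Cxcr5, the follicular receptor, from 91, 81.3 and 82.1 to 4.66, 6.75 and 4.93. All plasma cell values were below all activated values. Ccr9, a gut-homing receptor, rose from 0.5, 0.908 and 0.92 to 6.35, 8.19 and 6.12, and Cxcr4, which guides plasma cells to bone marrow, from 3.09, 9.32 and 3.66 to 21.4, 28 and 19. S1pr1, the egress receptor, was at 21.3, 17.9 and 25.2 and 20.4, 22.1 and 20.2, overlapping and not called (-0.02). Among 16 integrin and adhesion genes, 7 rose and 4 fell, where 31.7% of all tested genes rose and 33.8% fell. Selplg, the selectin ligand, rose (2.29), as did Itga4 (1.58), while Itgb1 (-1.97) and Itgb7 (-2.68) fell.

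Survival and innate sensing genes changed in both directions. Of 22 TNF family and survival genes, 5 rose and 13 fell (median -0.55). Cd40, the receptor for T cell help, went from 80.7, 85.4 and 77.4 to 3.73, 2.01 and 4.27, while the proapoptotic Bcl2l11 went from 7.08, 7.52 and 8.54 to 44.9, 43.6 and 42.9. Mcl1 (0.82) and Bcl2l1 (2.12), which protect plasma cells, rose and Bcl2 (-1.71) fell. The Bcl2a1 copies, which can share reads, fell, with Bcl2a1d at -3.66. Of 29 Toll-like receptor and NF-kB genes, 18 fell and 8 rose (median -0.71). Tlr1 (-4.12) and Ly86 (-2.54), a partner of the LPS-responsive receptor RP105, fell. The LPS receptor genes Tlr4 (0.38) and Ly96 (1.14) rose.

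Genes of cell division were lower on the whole, by modest amounts. Of 41 genes of DNA replication and nucleotide synthesis, 26 fell and 4 rose (median -0.47). Of 52 mitotic genes, 31 fell and 2 rose (median -0.35), and over the alternative settings the number that fell lay between 9 and 39. Uhrf1, which maintains DNA methylation at replication forks, went from 172, 188 and 156 to 58.2, 52.3 and 56.5 (log2 change -1.6 ± 0.085). Mybl2, a driver of cell cycle genes, went from 78.4, 71 and 66.4 to 24.7, 24 and 23.6. Mki67, the proliferation marker, went the other way, from 48.7, 45.4 and 50.4 to 72.8, 64 and 81.1 (0.58 ± 0.094, adjusted p = 5.3e-05). The groups did not overlap for these genes. Foxm1 (0.59) also rose, as did the replication genes Cdt1 (0.77), Fen1 (0.56), Rfc4 (0.21) and Rrm2 (0.2). Cdk1, the mitotic kinase, was at means of 68 and 65.4 and was not called.

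Of 31 cell cycle regulators, 9 rose and 16 fell, beside 31.7% and 33.8% of all tested genes. Ccnd3, the cyclin of activated B cells, went from 40.5, 46.6 and 34.7 to 13.2, 11.4 and 12.3, and Myc, the growth regulator, from 37, 31.9 and 39.8 to 18.2, 18.9 and 16.3 (-0.98 ± 0.1). Mxd4, a Myc antagonist, rose from 7.7, 7.11 and 8.75 to 38.6, 39.4 and 40.3. The groups were separate for all of them. Ribosome biogenesis fell in 30 of 38 genes and rose in 1 (median -0.62). Npm1, a nucleolar chaperone, went from 416, 499 and 405 to 159, 155 and 141 (-1.53 ± 0.088). Gnl3, a nucleolar GTPase, was the gene that rose (0.67). Cytosolic ribosomal protein genes had a median of 0.02, with 11 of 76 higher and 9 lower. Their direction depended on the scaling, and between 6 and 53 were called lower over the settings tried.

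**Figure D3:**
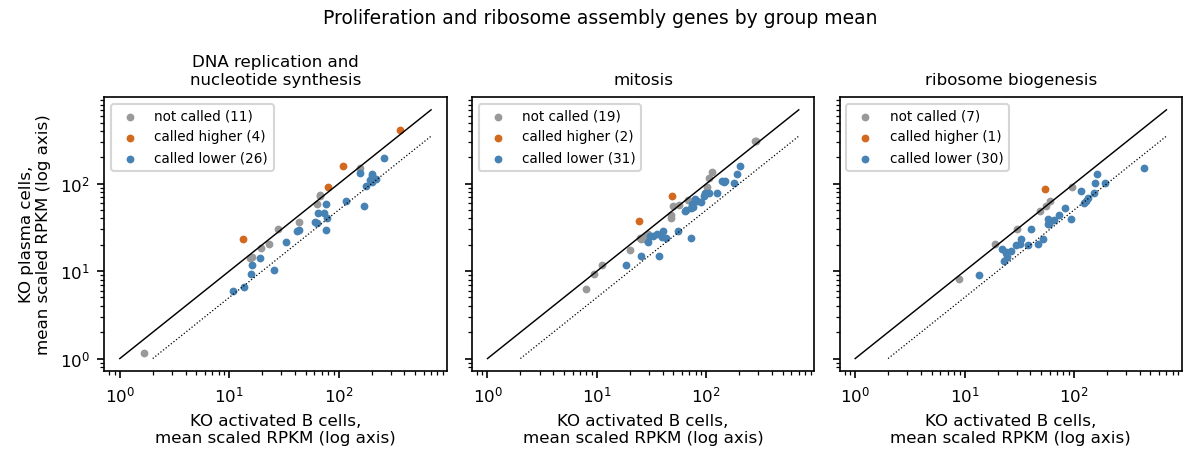
Mean scaled RPKM of each tested gene in 3 knockout activated (horizontal) and 3 knockout plasma cell libraries (vertical), both on log axes, for 41 replication, 52 mitosis and 38 ribosome biogenesis genes; the solid line is equality and the dotted line a 2-fold lower level in plasma cells. Most points lie between the lines, and genes called lower number 26, 31 and 30.

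Metabolic groups moved in both directions. Glycolysis fell in 17 of 25 genes and rose in 3 (median -0.62). Ldha fell by 1.06 on the log2 scale, Tpi1 went from 321, 318 and 292 to 164, 155 and 149, and the hexokinase genes parted, with Hk1 at -1.05 and Hk2 at 1.99. Respiratory chain subunits rose in 31 of 57 and fell in 6 (median 0.2), led by Ndufa1 (1.37) of complex I. Over the settings tried, 13 to 32 of them were called higher and 3 to 17 lower. Aminoacyl-tRNA synthetases rose in 12 of 20 and fell in 1 (median 0.4), with Yars (1.58) and Nars (1.42) at the top. Of 22 amino acid transport and stress genes, 12 rose and 4 fell, and Slc3a2, the heavy chain of the CD98 transporter, went from 46.6, 46.5 and 46.9 to 122, 139.6 and 124.

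Autophagy genes rose in 18 of 33 and fell in 5 (median 0.39). Wipi1, which acts in early autophagosomes, went from 0.132, 0.551 and 0.216 to 8.46, 7.33 and 7.88, and Atg13, of the initiating kinase complex, from 9.72, 10.3 and 9.64 to 50.8, 50.2 and 43.8. Tfeb, a factor for lysosomal genes, fell from 46.5, 36.1 and 41.4 to 10.1, 10.9 and 9.51. The groups were separate in each case. Proteasome subunits had a median of 0.00, with 7 higher, 7 lower and 22 not called of 36. Over all tested genes, 31.7% were higher and 33.8% lower. Over the settings tried 1 to 9 proteasome genes were called higher and 5 to 19 lower. Cholesterol synthesis rose in 5 of 26 and fell in 12, with Ebp (1.52) and Insig1 (1.34) highest and Hmgcs1 (-1.12) lowest.

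Interferon-stimulated genes split, with 10 of 42 higher and 21 lower (median -0.33), where 31.7% of all tested genes were higher and 33.8% lower. Isg20, an exonuclease, went from 17.4, 17.6 and 19.7 to 155, 158 and 148 and Bst2, the antiviral tetherin, from 35.3, 37.9 and 45.3 to 165, 156 and 144. Gbp2, a guanylate-binding protein, went from 44.7, 36.9 and 41.9 to 0.844, 1.07 and 0.743. Among 27 class switching and germinal centre genes, 5 rose and 17 fell (median -0.45). Apex1, a repair nuclease, fell from 113 to 27. Immediate early genes, which also respond to tissue handling, rose in 9 of 17 and fell in 7, with Jun going from 74.4, 65.6 and 78.3 to 195, 223 and 204 and Dusp2 from 56.4, 44.7 and 50 to 22.5, 20.3 and 11.8.

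Genes of chromatin silencing changed in both directions. Of 24 genes of the H3K9 methylation machinery, 6 rose and 9 fell (median -0.13), where 31.7% of all tested genes rose and 33.8% fell. Over the settings tried 1 to 6 were called higher and 7 to 12 lower. Suv39h1, another H3K9 methyltransferase, went from 43.7, 41.6 and 42 to 27.5, 23 and 25.2. Trim28, a corepressor that recruits such enzymes, went from 50.5, 54.2 and 47.8 to 26.8, 24.5 and 24.5, and Cbx3, a reader of the mark, from 55.4, 52.7 and 55.5 to 32, 26.1 and 31.1. Plasma cells were lower in every library for these genes. The H3K9 demethylase gene Kdm4b rose most (0.76). Of 19 genes of the Polycomb complex PRC2 and DNA methylation, 4 rose and 11 fell (median -0.31). Ezh2, the H3K27 methyltransferase, fell by 0.97 and Jarid2, a PRC2 cofactor, rose (1.06).

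The knockout step was then set beside the control step, fitted in the same model from separate libraries. In controls 3211 genes (30.9%) were called higher and 3522 (33.9%) lower. Of genes called higher in the knockout step, 84.4% were called higher in the control step, and 86.5% the other way round. For lower genes the shares were 84.5% and 84.2%. Across genes, which are not independent replicates, the log2 changes had a Pearson correlation of 0.952. For some lists the medians were close and for others they were not. They were 2.38 in knockout and 2.08 in control for ER chaperones, and -1.97 and -2.02 for B cell factors. For immediate early genes they were 0.64 and -0.09, for cell cycle regulators -0.28 and 0.02, and for glycolysis -0.62 and -0.35. Taken gene by gene, the median difference of the steps was 0.33 for immediate early genes, -0.04 for cell cycle regulators and -0.24 for glycolysis. It was 0.28 for ER chaperones and 0.21 for B cell factors. A gap between list medians can thus be unlike the typical difference of a gene. The differences between list medians were not tested.

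The difference between the steps, tested as an interaction, was called for 277 genes (2.67%). The knockout step was more positive for 228 (2.19%) and more negative for 49 (0.472%). Of these 277, 198 were also called between genotypes in activated cells (19.2% of all tested genes) and 120 in plasma cells (8.36%), from the same libraries. When the 6 naive B cell libraries entered the fit, 20 and 0 genes were called, and 24 and 1 when the same 10391 genes were tested with them. The median SD between naive replicates over those genes was 0.349 in each genotype, against 0.112 to 0.131 in the LPS groups. Most of these calls therefore depend on which libraries enter the fit.

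**Figure D4:**
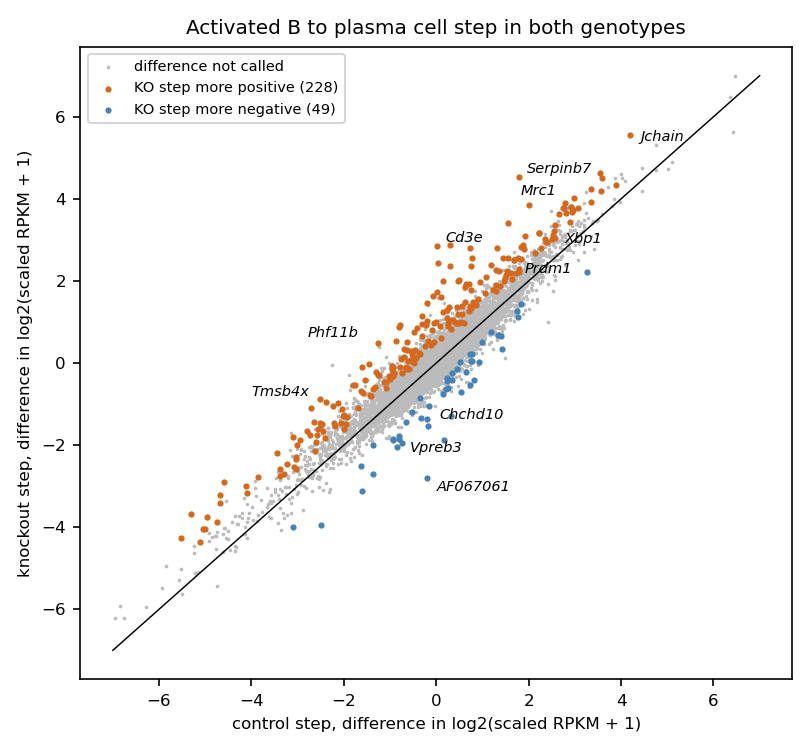
Log2 change of each of 10391 tested genes in the control step (horizontal) and the knockout step (vertical), each from 3 against 3 libraries, with equality as a line. Coloured points are the 228 genes with a more positive and the 49 with a more negative knockout step; most of the others lie near the line.

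Serpinb7, a serine protease inhibitor, was among the genes whose knockout step was more positive. It stood at 1.19, 1.11 and 1.04 in knockout activated cells and 42.4, 53.8 and 47.1 in knockout plasma cells, against 0.444, 1.14 and 1.25 and 5.03, 5.36 and 6.54 in controls. All knockout plasma cell libraries were above all others. The difference of the steps was 2.73 ± 0.23 (adjusted p = 1.6e-05). Mrc1, the mannose receptor of macrophages, reached 25, 30.2 and 32.9 in knockout and 7.4, 9.15 and 8.69 in control plasma cells (difference 1.83 ± 0.19).

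Cd3e, a chain of the T cell receptor complex, was at 0.116, 0.244 and 0.653 in knockout activated cells and 7.11, 8.72 and 10 in knockout plasma cells. In controls it was at 0.194, 0 and 0 and 0.108, 0.12 and 0. Only the knockout plasma cell libraries were above 1, in 3 of 3, and the difference of the steps was 2.84 ± 0.25 (adjusted p = 1.6e-05, and 0.13 with the naive libraries in the fit). Of 13 T cell markers listed, 5 were in the deposited table and 4 were tested. Those besides Cd3e changed in both directions. In knockout cells Lck was at 12.1, 10.2 and 9.74 and 0.899, 1.74 and 1.95, Cd2 at 99.7, 74.9 and 94.5 and 16, 19.8 and 12.2, and the mean of Cd4 was 0.178 and 0.0553. Lck and Cd2 fell in the control step as well, from means of 6.74 to 1.57 and 126 to 20.8. Cd8b1 rose from 1.12, 1.48 and 1.32 to 2.03, 4.71 and 2.58 in knockout cells (0.78) and was not called in the control step (0.06), and the difference of these steps was not called (0.72, adjusted p = 0.25). The part of T cells in these values was not tested.

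Tmsb4x, an actin-binding peptide, fell less in the knockout step. It went from 2417, 2648 and 2606 to 1245, 1464 and 1270.0 in knockout and from 2907, 2763 and 3126 to 519, 612 and 561 in control cells. Its difference was 1.43 ± 0.12 (adjusted p = 1.6e-05). Phf11b, a zinc finger protein, changed in opposite directions, from 103 to 144 in knockout and from 122 to 50 in control cells (difference 1.74 ± 0.13). Fgd2, an exchange factor of antigen-presenting cells, fell in both (-3.42 and -4.68).

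For several plasma cell genes the genotypes differed in activated cells more than in plasma cells. Jchain reached 5818 in knockout and 5955 in control plasma cells, from 123 and 326 in activated cells, and its step differed by 1.36 ± 0.14. Prdm1 began at 16.6 and 31.3 and ended at 98 and 102 (difference 0.82 ± 0.19, adjusted p = 0.030). Xbp1 differed by 0.67 ± 0.15 (adjusted p = 0.027). The calls for Prdm1 and Xbp1 held in 10 and 14 of 22 alternative settings.

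Among steps that were more negative in knockout cells was that of the mitochondrial gene Chchd10, which went from 107, 126 and 108 to 52.6, 54.8 and 54.7, against 119, 133 and 122 and 112, 111 and 114 in controls. The knockout plasma cell libraries were the lowest of the 12, and the difference was -0.9 ± 0.1 (adjusted p = 0.0002). Vpreb3, a chaperone of the B cell receptor, fell more (-1.86 against -0.8). Isg15, an interferon-induced modifier, fell in knockout (-0.71) and rose in control cells (0.54). Emb, an adhesion protein, and Fntb, a farnesyltransferase subunit, likewise fell in knockout (-0.43 and -0.54) and rose in control cells (0.81 and 0.73). For these genes the genotypes differed in activated cells. Emb means there were 17.8 in knockout and 5.65 in control, and Fntb means 12.4 and 4.48. In plasma cells they were 13 and 10.7 for Emb and 8.21 and 8.07 for Fntb, and neither genotype difference was called.

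**Figure D5:**
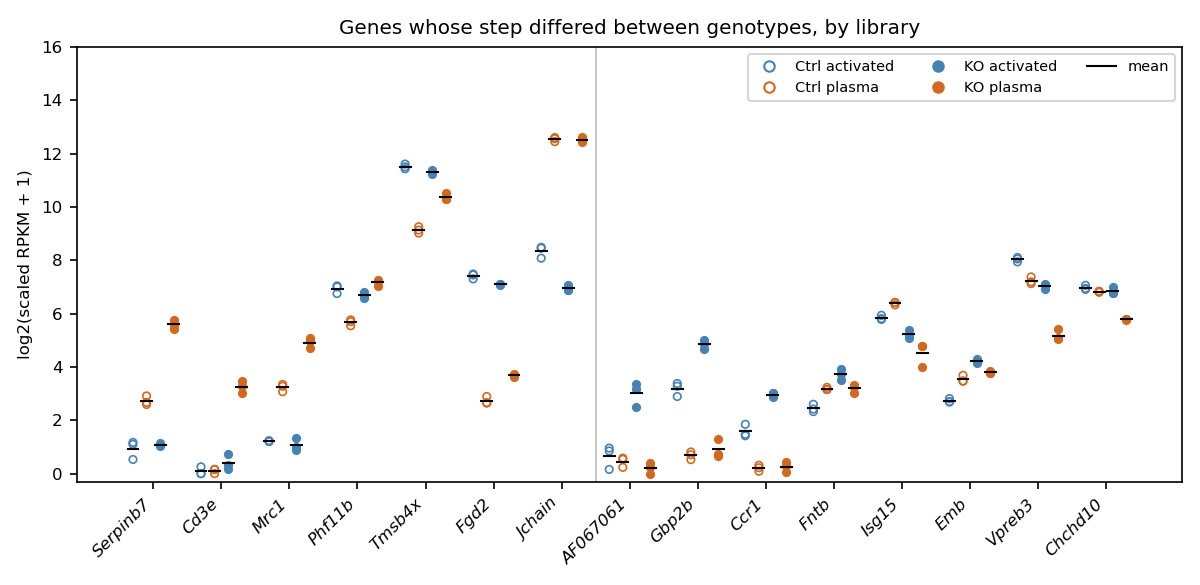
Level of 15 genes on the log2(scaled RPKM + 1) scale in each of 12 libraries, with control groups as open and knockout groups as filled circles, activated cells in blue, plasma cells in orange and a line at each mean of 3. The knockout step is more positive for the 7 genes left of the grey line and more negative for the 8 to its right.

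Genes that earlier reading of these libraries had named as higher in activated knockout cells are no independent evidence of direction here. Of those 10 genes, 3 rose and 7 fell in the knockout step. Ly6c2, a surface protein whose close copy Ly6c1 can share its reads, stood at 91, 97.7 and 92.7 in activated and 1672, 1842 and 1693 in plasma cells, and at means of 14.3 and 335 in controls. The step was large in both genotypes, and its difference of -0.26 ± 0.19 was not called (adjusted p = 0.56). Car2, a carbonic anhydrase, went from 21.1, 22.1 and 14.7 to 7.49, 5.19 and 6.69, and the globin gene Hbb-b2 from 39, 30 and 36.3 to 0.507, 0.641 and 9.99. Sh2d1b1, a signalling adaptor, rose from 7.03, 6.1 and 6.9 to 20, 16.8 and 16.9. The 10 genes named from these libraries as lower in activated knockout cells are no independent evidence either. Being chosen for low activated values favours a rise in the step. Of these 10 genes, 6 rose and 1 fell. Those that rose included D17H6S56E-5 (3.8) and Serinc5 (2.27).

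Markers of other cell types were detected and differed between libraries. Plasma cell replicate 4 held erythroid markers summing to 61.5, against 9.17 and 6.46 in replicates 1 and 3 and 66.2 to 82.4 in activated cells. Hba-a2 was at 0.221, 0 and 0.226 in activated and 0.423, 0 and 18.5 in plasma cells. Hbb-bs was at 22, 14.2 and 19.2 and 0.748, 0.632 and 26.3. In activated cells the sum thus came mostly from Hbb-b2, Hbb-bs and Car2, with little Hba-a2. The monocyte and macrophage markers summed to 84.3 in plasma cell replicate 4, 25.3 and 25.2 in the other two, and 37.1 to 65.6 in activated cells, and 3 of 12 rose and 2 fell. Itgam, which encodes the Cd11b used to gate cells out, fell from 14, 13.7 and 10.9 to 0.46, 0.277 and 0.71, and the macrophage gene Mpeg1 from 10.7, 5.08 and 8.55 to 0.0741, 0.0468 and 0.14. C1qb, a complement gene of macrophages, was at 0, 1.97 and 0 and 1.2, 1.9 and 7.26, and its call (log2 change 1.38) was lost without plasma cell replicate 4 (0.82), and also without activated replicate 1 or 4. T cell markers summed to 87.1 to 113 in activated and 26.2 to 35.0 in plasma cells, and 2 of 4 rose and 2 fell. Cd2 held most of the sum in activated cells. NK cell markers summed to at most 5.62 and neutrophil markers to at most 1.98 in any knockout library. The single platelet marker tested, Pf4, rose from 0.143 to 1.05. Dendritic cell markers summed to 77.1 to 83.6 in activated and 158 to 176 in plasma cells. Of 6 tested, 3 rose, among them Bst2, which held most of the sum in plasma cells, and Ccr9, and 2 fell, among them Flt3 (37 to 3.43). The part of such cells in the other results was not tested.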

How the data were processed

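The authors deposited 1 table of RPKM values for 12960 genes in 18 libraries. Per the submitters' processing notes, STAR and the mm10 build were used, and further steps were not given in the sources used here. Per the labels' protocols, cDNA was made with a SMART-seq kit and libraries with Nextera XT, which do not mark strand, so overlapping and antisense genes cannot be told apart. The files give no read counts. Depth was estimated from the spacing of low values, and 37.1 to 42.7% of those scored in the 12 LPS libraries lay within 0.1 read of a whole number, so it is approximate.

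Entrez identifiers placed 12946 of 12960 genes in RefSeq, which also gave 20 of 24 blank or date-like symbols. Values were scaled by median of ratios over 8696 genes above 1 RPKM in all 12 LPS libraries. Genes with a mean of at least 1 scaled RPKM in 1 of the 4 groups were tested (10391, leaving 2569). log2(scaled RPKM + 1) was fitted with limma 3.58.1 in R 4.3.3 over the 12 libraries, with a variance trend, two-sided tests and Benjamini-Hochberg adjustment over all tested genes; the method was tested on simulated data. Python 3.11.15 was used for tables and matplotlib 3.10.9 for plots. A pseudocount of 1 understates changes of low genes.

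Genes are named by rule: the largest changes, up to 12 each way, with at least 5 scaled RPKM and groups that do not overlap; up to 4 per list with the smallest adjusted p; up to 8 per direction for the difference of the steps; and 14 fixed genes. Other list members named were chosen after their values were seen. The members and lists were chosen with earlier results of these data known, and no test was made on a list. Alternatives covered the scaling, filter, pseudocount, libraries in the fit, variance model, library weights, a replicate block and leaving out each library. Some genes and an allele name are not reported here.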

Additional observations from a re-analysis of the deposited data

Results flagged for a closer look

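For 40 of the genes named in the text, 30 more positive and 10 more negative in knockout cells, the change from activated B cell to plasma cell differed between genotypes by the interaction test in limma, at an adjusted p below 0.05. Each value is the knockout step minus the control step in log2(scaled RPKM + 1). The knockout step was more positive by 2.84 for Cd3e, 2.73 for Serpinb7, 2.41 for Wfdc15a, 1.83 for Mrc1, 1.77 for Irf7, 1.74 for Phf11b and 1.69 for Btg1. It was more positive by 1.43 for Tmsb4x, 1.43 for S1pr1, 1.36 for Jchain, 1.27 for Cd38, 1.26 for Fgd2, 1.08 for Hid1, 1.03 for Fam46c and 1.02 for Siglecg. Positive differences below 1 were 0.99 for Bhlha15, 0.98 for Serinc5, 0.97 for Derl3, 0.88 for D17H6S56E-5, 0.82 for Prdm1, 0.82 for Ly6c1, 0.71 for Jun and 0.70 for Sec24d. Further ones were 0.67 for Xbp1, 0.65 for Isg20, 0.58 for Cd53, 0.58 for Txndc5, 0.55 for Foxo1, 0.55 for Ly86 and 0.50 for Selplg. The knockout step was more negative for AF067061 (-2.60), Gbp2b (-1.44), Ccr1 (-1.32), Fntb (-1.27) and Isg15 (-1.25). It was also more negative for Emb (-1.23), Vpreb3 (-1.06), Chchd10 (-0.90), Gnl3 (-0.73) and Slc3a2 (-0.40).

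The differences of Phf11b, Serpinb7, Tmsb4x, Fgd2, Jchain, D17H6S56E-5, S1pr1, Btg1, Irf7 and Siglecg stayed called in 22 of 22 alternative settings. With the naive libraries in the fit and the genes filtered anew, the calls of the other 30 genes were lost, with adjusted p of 0.0578 or more. The calls of Mrc1, Chchd10 and Cd38 were kept when the same 10391 genes were tested with the naive libraries. The calls of Foxo1, Xbp1, Jun, Prdm1, Selplg, Ly86 and Slc3a2 held in 4 to 14 of the 22 settings. Irf7, D17H6S56E-5, Hid1, Serinc5 and AF067061 had been named earlier from the same activated knockout libraries. Their differences are therefore no independent evidence.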

How the results depend on the processing

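Of 184 named genes, 170 kept the direction and the side of the threshold of their knockout step under every alternative that gave a value. Gzmb, which was not called, changed sign with library weights (0.10) and lay between -0.34 and 0.17 when 1 library was left out (0.15 without activated knockout replicate 3), and Rpl13 did so with quantile normalization (-0.21). With all 18 libraries in the fit, 2013 genes were called higher and 2220 lower, and the difference of the steps was called for 20 genes more positive and 0 more negative. On the same 10391 genes, an alternative added after seeing the data, these counts were 2090, 2309, 24 and 1. With library weights those differences numbered 401 and 100. Leaving out 1 library at a time gave 3023 to 3144 genes higher, 3181 to 3347 lower, 142 to 222 with a more positive and 23 to 52 with a more negative knockout step. The more positive count was 144 without control activated replicate 4, 147 without control plasma replicate 1 and 142 without knockout plasma replicate 3.

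Samples with the same replicate number did not deviate together in knockout cells (correlations 0.053, -0.10 and -0.02). Unlike numbers there ran from -0.129 to 0.111. In control cells the same-number correlations were 0.087, 0.098 and 0.12, above those of unlike numbers (-0.179 to 0.0812). The labels do not tie equal numbers to 1 animal, so the numbers were not taken as pairs. With the replicate number as a block, 3257 genes were higher, 3482 lower, and 192 and 39 differed between steps. Depth limits low genes most, and the values give no counts from which an interval could be drawn.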

Other observations

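Several genes outside the naming rule were picked after their values were seen, because their step differed between genotypes. Irf7, a master factor of interferon responses, went from 2.64, 3.99 and 3.63 in knockout activated cells to 23.9, 32.6 and 19.3 in knockout plasma cells. Its control means were 16.8 and 29.3, and the difference of the steps was 1.77 ± 0.26. S1pr1, whose knockout values overlapped, had control means of 50.8 and 17.9 (difference 1.43 ± 0.17). Wfdc15a, a gene of the whey acidic protein family, went from 2.86, 4.5 and 5.49 to 26.4, 27.3 and 27.4 in knockout cells and had control means of 0.0858 and 0.111. All knockout plasma cell libraries were above all knockout activated libraries for Irf7 and Wfdc15a.

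Btg1, an antiproliferative gene of resting cells, and Cd38 fell in both genotypes and less so in knockout cells. The Btg1 changes were -2.9 in knockout and -4.59 in control cells, and those of Cd38 were -2.19 and -3.45.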
